A study of Mus musculus with 48 samples.

Results

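Night and day were compared in the subcutaneous white adipose tissue (sWAT) of mice that ate without a meal schedule. The comparison took the 4 ad-lib libraries labelled 12AM against the 4 ad-lib libraries labelled 12PM, 8 of the 48 RNA-seq libraries of the series. All 8 came from C57BL/6 mice aged 8 months by the labels, male C57BL/6J by the study's methods, with regular chow always available and no transgene or agent named for either group. By the study's methods the diets ran for 6 months, the dark phase was 8 p.m. to 8 a.m., and mice were housed in groups, so that 12AM fell in the dark and 12PM in the light. The other mice of the series were given 2 meals a night (TAN) and serve here only to show where ad-lib mice differed. The labels give the depot as inguinal white fat (iWAT). The series text calls the material a stromal vascular fraction, whereas the paper describes whole sWAT. The labels number the libraries but do not name the mice, so p-values measure the spread between these libraries.

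The hour of each library is given differently by different parts of the record. The sample labels, the count table and the deposited group means share one set of hours, and all 12 group means matched the count-table group of the same name. The paper's supplementary expression sheet lists every one of the 48 libraries 12 h away from its label, including all 8 used here. Both groups hold the same libraries under either labelling, but every direction below would turn round under the supplementary hours. All hours below are those of the labels.

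The circadian clock is a feedback loop that runs in nearly every cell. The activators BMAL1 (Arntl) and CLOCK switch on the Per and Cry genes, whose proteins then repress them, while the nuclear receptors REV-ERB (Nr1d1, Nr1d2) and ROR (such as Rora) repress and activate Arntl. In fat the loop drives output factors such as Dbp, Tef, Hlf and Nfil3, and it runs alongside the nightly rise of feeding, body temperature and glucocorticoids in nocturnal mice. Expression is given as CPM, counts scaled to a common library size after scaling for library composition, and differences as the log2 fold change of 12AM minus 12PM with its standard error (SE).

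The 12PM libraries of replicates 1 and 3 stood apart from the other 6 before any time effect was considered. Total counts ranged from 20268464 to 29913310 at 12AM and from 20088111 to 26241169 at 12PM, and mitochondrially encoded genes took 4.27% to 5.75% and 3.57% to 5.45% of them. The 12 lymphocyte markers summed to between 1006 and 1327 CPM in the 12AM libraries. At 12PM they summed to 17.4 CPM in replicate 1 and 9.99 CPM in replicate 3, but to 1878 and 1375 CPM in replicates 2 and 4. Cd79a, a B cell receptor subunit, was at 2.20 and 0.989 CPM in replicates 1 and 3 and between 130 and 242 CPM in the other 6 libraries. The 7 lymph node stroma markers followed the same split, with 37.4 and 17.4 CPM in those 12PM libraries and between 363 and 609 CPM elsewhere. The 12 skeletal muscle markers, 1 of which had no count in any of the 8, summed to 3261 CPM in 12PM replicate 3 and 765 CPM in 12AM replicate 3, against 9.79 to 114 CPM in the other 6.

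Markers of the labelled tissue were high in every library. The 10 adipocyte markers, all detected, summed to 26384 to 35581 CPM at 12AM and 22486 to 52232 CPM at 12PM. Stroma markers summed to 1206 to 2016 CPM at 12AM and 1409 to 4168 CPM at 12PM, and macrophage markers reached 4084 CPM in 12PM replicate 2. Endothelial markers summed to 503 to 642 CPM at 12AM and 606 to 1011 CPM at 12PM. Brown adipocyte markers were low by comparison at 58.0 to 193 CPM, mammary epithelium markers reached at most 8.83 CPM, and those of ILC2 and eosinophils between 83.7 and 115 CPM. Erythrocyte markers were highest in 12PM replicate 1 (1477 CPM) and otherwise at 445 to 801 CPM. In 13 exact two-sided permutation tests of the marker sums, the mitochondrial share and the total counts, adjusted p lay between 0.371 and 0.943. With 4 libraries against 4 the smallest unadjusted p such a test allows is 0.0286. After adjustment over the 13 tests, 1 measure at that p alone could not pass, so these tests could not show a difference limited to 1 measure. In bulk tissue, fewer cells of a type and less RNA per cell cannot be told apart.

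**Figure D1:**
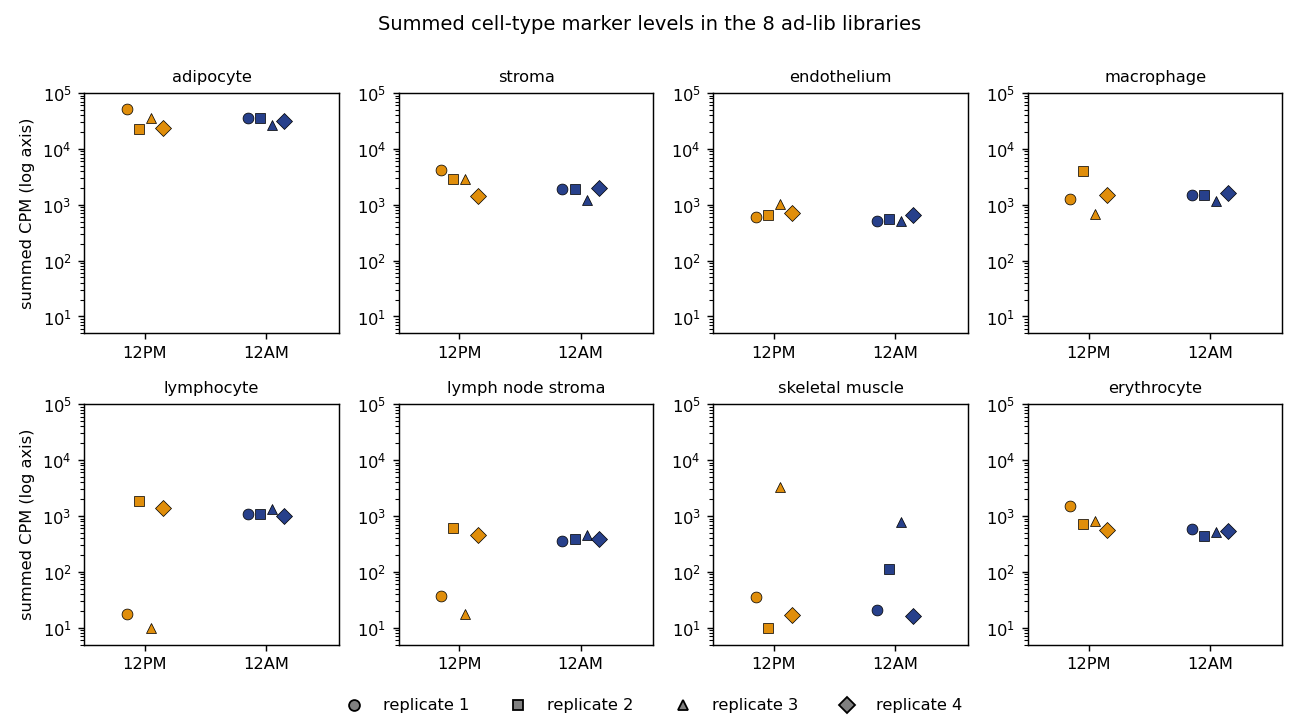
Summed CPM of 8 cell-type marker lists (log axis) in the 4 ad-lib libraries of each labelled time, with marker shape giving the replicate number. Lymphocyte and lymph node markers were near the bottom of the axis in 12PM replicates 1 and 3, and skeletal muscle markers were highest in 12PM replicate 3 (3261 CPM).

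Of the 19977 genes tested, 2 differed between night and day at an adjusted p under 0.05 in edgeR's quasi-likelihood test, and both belong to the core clock. Cry1, the repressor, was the only gene higher at 12AM (0.00501% of those tested), and Nr1d1, the Arntl repressor REV-ERB alpha, was the only gene lower (0.00501%). At an unadjusted p under 0.05 there were 933 genes (4.67%), 504 of them higher at 12AM. The 4 libraries of one time did not overlap the 4 of the other in 517 genes (2.59%). The median log2 fold change over all tested genes was 0.01. These percentages are the background against which the gene lists below are read. The lists were chosen with earlier results of these data known, so an excess over the background is a description and not independent support.

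Cry1 (ENSMUSG00000020038, chromosome 10, 85131700 to 85185064 on GRCm38, minus strand) encodes cryptochrome 1, which closes the negative limb of the loop. It measured 35.3, 45.4, 32.4 and 33.8 CPM in 12AM replicates 1 to 4, and 10.5, 13.3, 11.5 and 12.8 CPM at 12PM. Every night library lay above every day library, and the day libraries were within 3 CPM of each other. Cry1 rose 3.05-fold (log2 fold change 1.61, SE 0.26, adjusted p = 0.00273, edgeR). As no libraries overlapped, Cry1 was higher at night in all 4 pairs of the same number, as it would be under any pairing. A fit of only the 8 libraries did not call it. With the replicate block added to that fit, the adjusted p was 0.36 at a log2 fold change of 1.63. With 12PM replicates 1 and 3 left out, Cry1 did not pass (adjusted p = 0.422).

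Nr1d1 (ENSMUSG00000020889, chromosome 11, 98767932 to 98775333 on GRCm38, minus strand) encodes a heme-binding receptor that represses Arntl and lipid genes. It was at 3.91, 2.05, 4.57 and 3.99 CPM in the 12AM libraries, and at 53.4, 25.7, 62.1 and 75.1 CPM in the 12PM libraries. The lowest day library, replicate 2, still lay far above the highest night library. Nr1d1 was 14.8-fold lower at night (log2 fold change -3.89, SE 0.58, adjusted p = 0.00108, edgeR). With the replicate block the log2 fold change was -3.83 (adjusted p = 0.013), and without 12PM replicates 1 and 3 it was -3.79 (adjusted p = 0.0185). Nr1d1 did not pass with limma voom or in the fit of the 24 ad-lib libraries, which called no gene. The 3' end of Nr1d1 overlaps Thra, a thyroid hormone receptor gene on the plus strand (98740638 to 98769006), and the strand setting of the counts is not given. Thra measured 25.6 to 43.2 CPM at 12AM and 30.8 to 78.1 CPM at 12PM (log2 fold change -0.61, SE 0.35, adjusted p = 1), so its groups overlapped.

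The promoters of the 2 called genes are shown, and CACGTG, the canonical E-box bound by BMAL1 and CLOCK, was searched in them. The windows hold 250 bases before and 50 after the annotated start (RefSeq, GRCm38.p6), both on the minus strand, with any match in capitals. Cry1 lies at chr10:85185005-85185304 and Nr1d1 at chr11:98775328-98775627.
Cry1: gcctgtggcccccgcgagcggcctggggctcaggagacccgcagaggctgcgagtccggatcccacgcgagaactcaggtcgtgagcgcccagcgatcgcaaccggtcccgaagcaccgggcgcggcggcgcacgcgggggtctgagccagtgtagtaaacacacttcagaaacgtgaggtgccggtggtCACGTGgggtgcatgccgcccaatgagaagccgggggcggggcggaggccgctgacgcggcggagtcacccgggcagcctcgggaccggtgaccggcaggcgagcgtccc
Nr1d1: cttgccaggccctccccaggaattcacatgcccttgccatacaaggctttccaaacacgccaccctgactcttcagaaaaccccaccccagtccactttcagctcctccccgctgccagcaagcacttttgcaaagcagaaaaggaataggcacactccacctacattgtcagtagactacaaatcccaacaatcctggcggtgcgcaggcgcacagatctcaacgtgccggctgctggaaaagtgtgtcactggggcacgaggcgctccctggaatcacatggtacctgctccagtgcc
The Cry1 window held 1 E-box, whose first base was at -60 from the start, and the Nr1d1 window held none. Of the 32851 promoter windows of the reference, 7.15% held CACGTG, a palindrome that reads alike on both strands. Of 32 core clock and output genes, 25 had an entry, with 35 windows between them. Of these 25 genes, 7 had an E-box in at least 1 window (Per1, Cry1, Tef, Bhlhe41, Ciart, Klf15 and Tspan4). That count is by gene, whereas the share of the reference is by window. The D-box letters TTANNTAA were in Per3 and Tef, and in 6% of all windows. A match here is a description of letters in a short window. Sites outside the window were not searched, and no link to the direction of change was tested.

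The core clock list had 15 genes, all tested. Of these, 6 had an unadjusted p under 0.05 (4 to 7 over the alternatives), or 40.0% against 4.67% of all genes. The times did not overlap in 4 (against 2.59% of all genes), Nr1d1, Cry1 and Per2 among them. Beyond Cry1 and Nr1d1 none passed the adjusted threshold. Per2, the period repressor that works with Cry1, measured 19.3, 13.8, 25.9 and 23.8 CPM at 12AM and 1.38, 2.15, 11.6 and 4.12 CPM at 12PM. Replicate 3 was the highest of each group, and the lowest night library was above it at 12PM (log2 fold change 2.11, SE 0.60, adjusted p = 0.873).

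Other core genes overlapped between night and day. Nr1d2, the paralogue of Nr1d1, had 121, 53.8, 76.0 and 93.0 CPM at 12AM against 139, 164, 156 and 116 CPM at 12PM (log2 fold change -0.74, SE 0.29, adjusted p = 0.98). Only night replicate 1 reached into the day range. Arntl averaged 25.2 ± 13.4 CPM at night and 22.3 ± 3.59 CPM by day (SD, n = 4), and its night spread came from replicate 2 at 44.7 CPM, against 13.9 to 21.8 CPM in the other 3. That library was also the lowest at night for Nr1d1, Per1, Per2, Per3, Nr1d2 and Dbp. Per1 (0.75, SE 0.51), Per3 (0.57, SE 0.53), Npas2 (-1.61, SE 0.84), Clock (-0.28, SE 0.27), Cry2, Rora, Csnk1d and Csnk1e had unadjusted p between 0.0636 and 0.891.

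**Figure D2:**
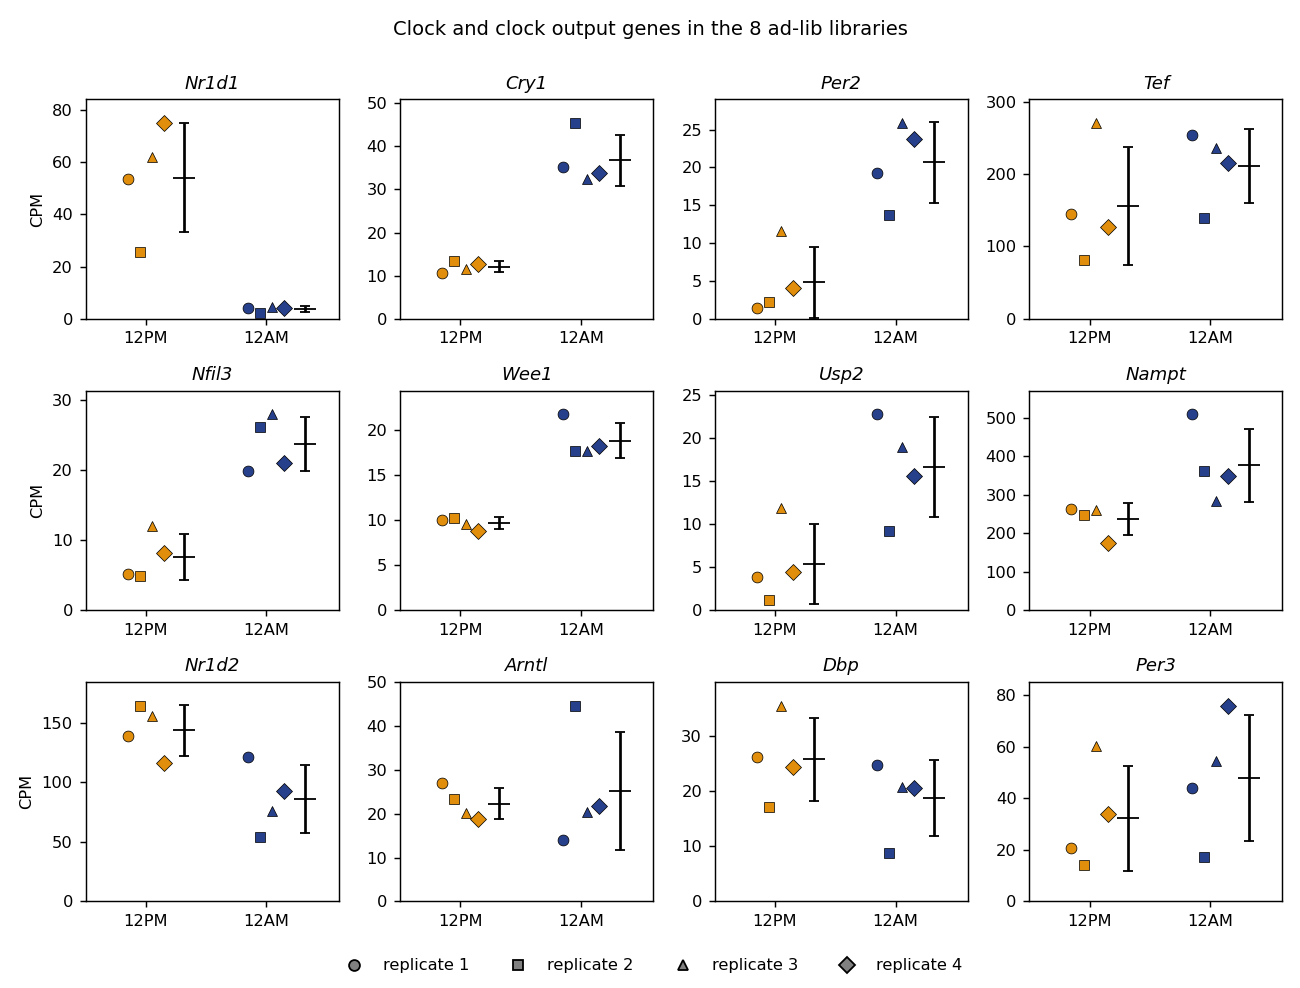
CPM of 12 clock and clock output genes in the 4 ad-lib libraries labelled 12PM (orange) and 12AM (blue), with the replicate number as marker shape and bars for mean ± SD. Cry1, Per2, Nfil3, Wee1 and Nampt were higher at 12AM without overlap, Nr1d1 was lower without overlap, and Tef, Usp2, Nr1d2, Arntl, Dbp and Per3 overlapped.

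Genes driven by the clock leaned to higher values at night, though none passed the adjusted threshold. Of the 17 genes on the list 16 were tested (Npas4 was too low), and 12 of these had a positive difference. An unadjusted p under 0.05 was reached by 4 (against 4.67% of all genes), and 3 did not overlap (against 2.59%). The median log2 fold change was 0.39 against 0.01 for all genes. Nfil3, a repressor that competes with Dbp for D-boxes, measured 19.8, 26.1, 27.9 and 21.0 CPM at 12AM and 5.18, 4.85, 12.1 and 8.15 CPM at 12PM (1.65, SE 0.43, adjusted p = 0.542). Wee1, a kinase that delays entry to mitosis, was at 21.7, 17.7, 17.6 and 18.2 CPM at night and 9.98, 10.2, 9.54 and 8.72 CPM by day (0.97, SE 0.31, adjusted p = 0.873). Every night library exceeded every day library in both, and the day values of Wee1 lay closer together than those of Nfil3. Nampt, which makes the NAD precursor, had 509, 362, 284 and 349 CPM at night and 264, 247, 260 and 175 CPM by day (0.67, SE 0.31, adjusted p = 1). Usp2, a deubiquitinase, was at 22.8, 9.16, 19.0 and 15.6 CPM at night and 3.89, 1.16, 11.9 and 4.44 CPM by day (1.64, SE 0.54, adjusted p = 0.873), where night replicate 2 fell below day replicate 3. The PAR factors, the activators of D-boxes, differed little. Dbp gave -0.46 (SE 0.49), Tef 0.44 (SE 0.34) and Hlf 0.45 (SE 0.40), with adjusted p = 1 for each. The remaining tested output genes ran from -0.54 for the repressor Klf10 to 0.95 for Ciart, a repressor of BMAL1 and CLOCK also called Chrono, none with an unadjusted p under 0.05. With 12PM replicates 1 and 3 left out, 8 of 17 output genes had an unadjusted p under 0.05 and the median was 0.91.

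The other 4 labelled times of ad-lib mice place both called genes on the daily curve, as group means with no test. Nr1d1 was highest at 4PM (92.3 ± 26.5 CPM, SD, n = 4) and lowest at 12AM (3.63 ± 1.09 CPM), with 54.1 ± 20.9 CPM at 12PM on its way up. Cry1 was at its 2 extremes in the times compared here, 36.7 ± 5.92 CPM at 12AM and 12.0 ± 1.26 CPM at 12PM. Nfil3, Nampt and Usp2 also had their highest mean at 12AM. Arntl was highest at 8AM (32.3 ± 9.59 CPM) and lowest at 4PM (9.93 ± 2.96 CPM), and Dbp the reverse, with 101.9 ± 19.9 CPM at 4PM and 8.37 ± 4.99 CPM at 8AM. For these genes 12AM and 12PM both lay away from the extremes. Per2 was near its highest mean at both 8PM and 12AM (21.0 ± 3.61 and 20.7 ± 5.37 CPM). The 4AM libraries disagreed with each other, with Nr1d1 at 54.5, 7.44, 69.9 and 4.62 CPM in replicates 1 to 4. Nr1d1 transcript is known to peak in the light phase in mouse tissues. The sample labels put its highest means there and the supplementary hours do not, but which hours are right was not tested.

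**Figure D3:**
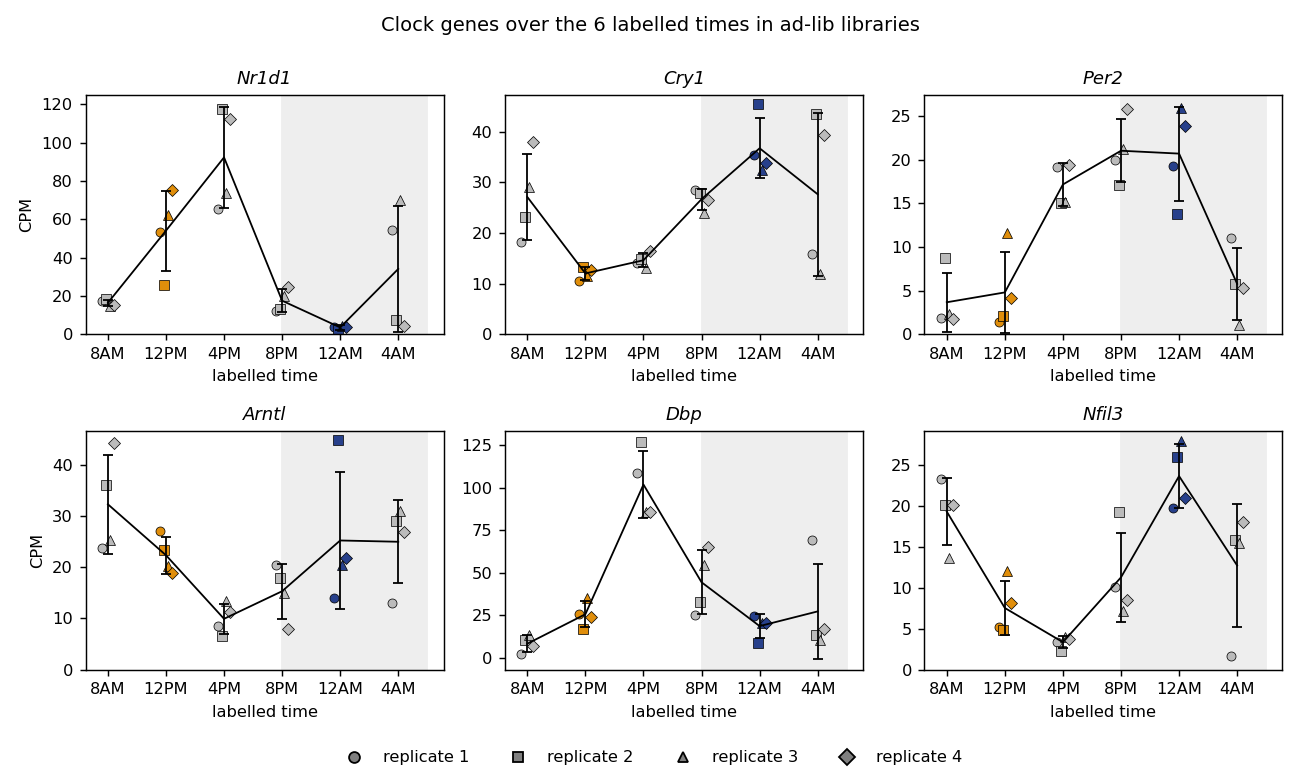
CPM of 6 clock genes in the 24 ad-lib libraries over the 6 labelled times, with black lines joining group means, bars for SD (n = 4), and grey shading from 8PM for the dark phase. The 12PM libraries are orange and the 12AM libraries blue. Nr1d1 means were 92.3 CPM at 4PM and 3.63 CPM at 12AM, and Cry1 means were highest at 12AM and lowest at 12PM.

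Among glucocorticoid-induced genes, Fkbp5 and Tsc22d3 had separate night and day libraries. Glucocorticoid is released daily before the active phase and acts through the receptor Nr3c1. Fkbp5, a chaperone of that receptor and a standard read-out of its activity, measured 80.6, 47.9, 75.4 and 84.6 CPM at 12AM and 28.3, 21.9, 39.2 and 33.3 CPM at 12PM. The groups were separate, but the gene did not pass the adjusted threshold (log2 fold change 1.23, SE 0.25, adjusted p = 0.0898, edgeR). It passed in 5 of 23 alternatives, DESeq2 among them (adjusted p = 0.00828), and its log2 fold change lay between 1.07 and 1.39 in all 23. Tsc22d3, also known as GILZ, was at 283, 241, 277 and 239 CPM at night and 152, 145, 165 and 115 CPM by day (0.85, SE 0.25, adjusted p = 0.873), without overlap. These were the only 2 of the 17 tested targets with an unadjusted p under 0.05 (against 4.67% of all genes), and the list median was -0.09. Per1, Klf9, Sgk1, Dusp1, Zbtb16 and Nr3c1 had unadjusted p between 0.144 and 0.831.

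De novo lipogenesis, the making of fatty acids from citrate and acetate, was the list furthest from 0 apart from skeletal muscle markers. All 17 genes had a positive difference (16 with RLE factors or DESeq2, and 15 at the fewest over the alternatives). Of these, 7 had an unadjusted p under 0.05 (41.2% against 4.67% of all genes), 6 did not overlap (against 2.59%), and the median log2 fold change was 0.92. The list was chosen with earlier results of these data known, which limits this comparison. None passed the adjusted threshold. Acacb, the carboxylase whose malonyl-CoA restrains fat oxidation, had 94.4, 45.8, 148 and 173 CPM at 12AM against 15.6, 12.2, 43.0 and 31.2 CPM at 12PM (2.18, SE 0.47, adjusted p = 0.128). Aacs, which activates acetoacetate for lipid synthesis, was at 433, 477, 499 and 519 CPM at night and 187, 96.3, 299.9 and 178 CPM by day (1.34, SE 0.41, adjusted p = 0.873). Night libraries exceeded day libraries throughout for both, and 12PM replicate 3 was the highest of the day. Acly, which cleaves citrate to acetyl-CoA, had 751, 818, 908 and 765 CPM at night and 204, 190, 666 and 238 CPM by day (1.32, SE 0.52, adjusted p = 0.98). Fasn, the fatty acid synthase, had 1278, 909, 2150 and 1430 CPM against 435, 174, 1205 and 461 CPM (1.34, SE 0.54, adjusted p = 0.98), and its groups overlapped through 12PM replicate 3. Thrsp, Acss2 and Slc25a1, named here because they complete the 6 that did not overlap, gave 1.35, 1.17 and 0.92. Scd1, the most counted gene of the list, did not follow (0.04, SE 0.52), nor did its regulators Srebf1 (0.46, SE 0.39) and Mlxipl (0.42, SE 0.57) reach an unadjusted p under 0.05.

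The lipogenic results depended on the covariate and on which libraries were fitted. Among the 12PM libraries, replicate 3 was the highest for Acacb, Aacs, Acly and Fasn. Replicate 1 lay between replicates 2 and 4 for these genes other than Aacs, where it lay above both. In the fit with the mean log2 level of the lymphocyte markers as a covariate, 16 of the 17 genes had an unadjusted p under 0.05, the median was 1.51, and Acacb (2.47) and Aacs (1.87) passed with an adjusted p of 0.0165 each. Over all genes, 1593 (7.97%) then had an unadjusted p under 0.05. With 12PM replicates 1 and 3 left out, 10 of 17 genes had an unadjusted p under 0.05, the median was 1.41 and none passed. With the replicate block it was 13 of 17, at a median of 0.99. Leaving out a library with lymphocyte markers at 12PM lowered the count, to 2 of 17 without replicate 2 (median 0.71) and 3 of 17 without replicate 4 (median 0.81). The part of lymphocyte and muscle RNA in these values was not tested beyond these fits.

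**Figure D4:**
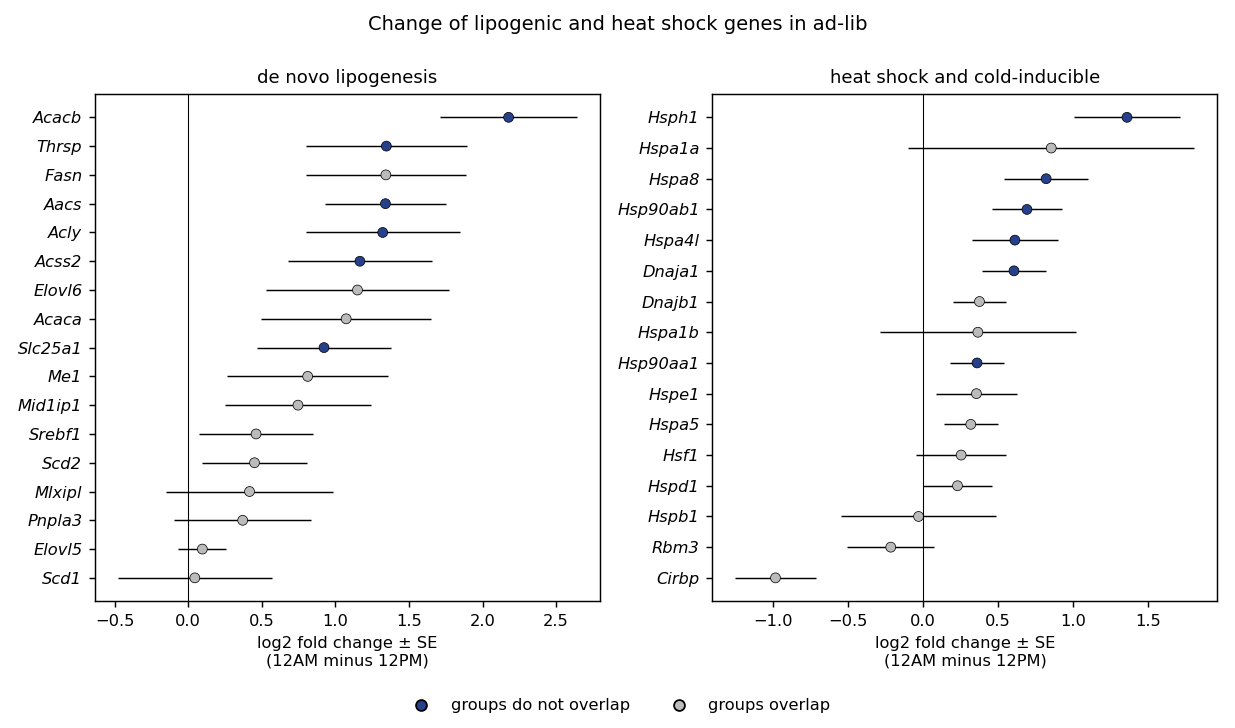
Log2 fold change of 12AM minus 12PM with SE for the 17 lipogenic genes and the 16 heat shock and cold-inducible genes in ad-lib libraries, in blue where the 4 libraries of each time did not overlap. All 17 lipogenic values were above 0 (15 at the fewest over the alternatives), from 0.04 for Scd1 to 2.18 for Acacb, and Cirbp was the lowest heat shock value at -0.98.

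Sugar and glycogen genes gave a few night-high values, while most genes of these lists had no unadjusted p under 0.05. Of 22 genes of glycolysis and glucose entry, 2 had an unadjusted p under 0.05 (against 4.67% of all genes). The times did not overlap in 3 (Pfkl, Slc2a5 and Eno1, against 2.59% of all genes), and the median was 0.16. Pfkl, a phosphofructokinase subunit, was at 70.4, 64.4, 82.1 and 75.0 CPM at 12AM and 28.6, 27.7, 50.4 and 49.2 CPM at 12PM (0.90, SE 0.23, adjusted p = 0.521). Slc2a5, the fructose transporter GLUT5, had 15.98, 8.71, 7.85 and 5.26 CPM against 1.123, 1.76, 3.02 and 1.51 CPM (2.35, SE 0.76, adjusted p = 0.873). Both were separate between the times, and Slc2a5 was low throughout. Of 15 glycogen genes, 2 had an unadjusted p under 0.05 and 1 did not overlap, with a median of 0.12. Ppp1r3b, which targets a phosphatase to glycogen, had 357, 317, 239 and 95.6 CPM at night and 32.9, 25.8, 151 and 25.9 CPM by day (2.10, SE 0.81, adjusted p = 0.98), with overlap. Gys2, a glycogen synthase, had 46.2, 34.0, 25.9 and 28.0 CPM against 13.9, 12.8, 18.8 and 17.3 CPM (1.09, SE 0.46, adjusted p = 0.996) without overlap. Of 12 triglyceride synthesis genes, 2 had an unadjusted p under 0.05 (against 4.67% of all genes). In the same direction lay Gpd1, which makes the glycerol backbone (0.98, SE 0.45), whereas Pck1, the glyceroneogenic enzyme, lay in the other (-0.97, SE 0.47). Both overlapped, with adjusted p = 1.

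Cytosolic chaperones were higher and the cold-inducible Cirbp lower in the 12AM libraries, again short of the adjusted threshold. Heat shock transcripts and Cirbp are known to follow the daily body temperature rhythm in opposite directions. Of 16 genes 13 had a positive difference, and 8 had an unadjusted p under 0.05 (against 4.67% of all genes), 7 of those higher at 12AM. The times did not overlap in 6 (against 2.59% of all genes), and the median was 0.36. Hsph1, an HSP110 chaperone, measured 56.3, 93.8, 101 and 80.8 CPM at 12AM and 27.7, 22.8, 44.4 and 34.2 CPM at 12PM (1.36, SE 0.35, adjusted p = 0.542). Hspa8, the constitutive HSP70, had 2000, 3487, 2336 and 2381 CPM at night and 1315, 1683, 1583 and 1191 CPM by day (0.82, SE 0.28, adjusted p = 0.921). Hsp90ab1 gave 0.69 (SE 0.24, adjusted p = 0.921). The night libraries lay above the day libraries in all of these. Cirbp, an RNA-binding protein induced by cooling, was at 51.5, 36.7, 49.7 and 42.4 CPM at night and 89.3, 132, 49.3 and 85.7 CPM by day (-0.98, SE 0.27, adjusted p = 0.792), and day replicate 3 alone fell within the night range. With the lymphocyte covariate Cirbp passed (-1.27, adjusted p = 0.00576) and 11 of 16 genes had an unadjusted p under 0.05. With 12PM replicates 1 and 3 left out it was 6 of 16, with RLE factors or DESeq2 5, and without 12AM replicate 2 or 12PM replicate 4 it was 4.

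Matrix and vessel gene lists leaned the other way, and the sign of their medians turned without the libraries low in lymphocyte markers. Of 22 collagen and matrix genes 18 had a negative difference, with a median of -0.48. An unadjusted p under 0.05 was found in 2 (against 4.67% of all genes), and 1 did not overlap (against 2.59%). Lox, the collagen cross-linker, measured 79.0, 104, 64.6 and 90.5 CPM at 12AM and 296, 143, 237 and 119 CPM at 12PM (-1.23, SE 0.41, adjusted p = 0.875), with the highest values in 12PM replicates 1 and 3. With both of those libraries left out, the list median was 0.20 and 18 genes were positive, while Lox was at -0.62. All 10 stroma markers and all 8 endothelial markers were negative (medians -0.43 and -0.30), with none of the first and 1 of the second at an unadjusted p under 0.05. Cldn5, the endothelial tight junction gene, had 56.9, 88.6, 51.4 and 68.1 CPM at night and 178, 165, 115 and 95.2 CPM by day (-1.06, SE 0.40, adjusted p = 0.98), and it was lower at night in all 23 alternatives. Without 12PM replicates 1 and 3 the endothelial median was 0.04, with 5 of 8 genes positive, and with the lymphocyte covariate it was 0.10. The median of the muscle markers was -1.86 and ranged from -4.00 to 5.92 over the alternatives. The 12 lymphocyte markers were all positive at a median of 0.48, which ranged from -0.50 to 2.87.

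Signal genes of the fat cell gave single night-high values. Of 14 adipokine genes, Apln, Nrg4 and Nampt had an unadjusted p under 0.05 (against 4.67% of all genes), at a list median of -0.21. Apln, the peptide apelin, had 19.0, 12.3, 11.3 and 10.4 CPM at 12AM against 5.66, 4.34, 8.80 and 4.77 CPM at 12PM (1.17, SE 0.41, adjusted p = 0.946). Nrg4, a neuregulin secreted by fat, had 149, 139, 125 and 136 CPM against 82.3, 38.3, 109.8 and 75.2 CPM (0.85, SE 0.41, adjusted p = 1). Cidea, a lipid droplet protein of thermogenic fat, had 102, 55.5, 37.4 and 56.4 CPM against 18.3, 20.9, 23.2 and 37.0 CPM (1.34, SE 0.42, adjusted p = 0.873). Night and day were separate for Apln, Nrg4 and Cidea, the last by less than 1 CPM. Ucp1, the uncoupling protein, averaged 0.322 ± 0.645 CPM at night and 0.386 ± 0.458 CPM by day, and the thermogenesis list had 6 of 17 genes positive and 1, Cidea, at an unadjusted p under 0.05. Il17rb, the IL-25 receptor of group 2 innate lymphoid cells, was at 4.88, 6.86, 8.49 and 5.45 CPM against 2.46, 2.41, 3.02 and 4.40 CPM (1.06, SE 0.45, adjusted p = 0.994). Of the 12 genes on its marker list 7 were tested, and it alone had an unadjusted p under 0.05. Only 3 of the 7 had a positive difference, at a median of -0.13.

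Several pathways gave no gene at an unadjusted p under 0.05. They were fatty acid oxidation (19 tested), electron transport (19), fatty acid uptake (12), autophagy (21), the unfolded protein response (20), the integrated stress response (16), immediate early genes (21), insulin and FoxO nodes (21), adipogenic factors (14), DNA replication (18) and ribosomal proteins (22). Their medians lay between -0.16 for autophagy and 0.33 for DNA replication. Lipolysis and lipid droplet genes had only Cidea of 16. Cholesterol synthesis and uptake had Mvd (0.70, SE 0.31) of 23, antioxidant genes had Gsr (-0.48) and Txnip (-0.63) of 20, the interferon response had 2 of 20, Irf7 (0.75) among them, and NAD genes had Parp1 (0.81) beside Nampt of 16. Of 15 genes of immune traffic only the chemokine Ccl19 reached it, through 12AM replicate 1 at 17.9 CPM against 0 to 0.282 CPM in the other 7 libraries. None of these passed the adjusted threshold.

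Mice on the 2-meal schedule gave more genes in the same clock-time contrast. In TAN, 166 genes were higher at 12AM (0.831%) and 76 lower (0.38%) at an adjusted p under 0.05, and the median of all genes was -0.20. TAN libraries also stood apart, with lymphocyte marker sums of 1642, 13.1, 382 and 17.8 CPM at 12AM against 527 to 1217 CPM at 12PM. Mitochondrially encoded genes took 11.9% of counts in TAN 12AM replicate 4, against 5.71% to 6.98% in the other 7. The part of these in the TAN counts was not tested. Both genes called in ad-lib were called in TAN in the same direction, with 240 called in TAN only. The difference between the diets was called for 1 gene (0.00501%), so for the other genes on the TAN list no difference from ad-lib was shown. Cry1 in TAN measured 43.6, 49.3, 48.5 and 50.9 CPM at 12AM and 14.5, 12.0, 12.2 and 12.5 CPM at 12PM (log2 fold change 1.91, SE 0.26). Nr1d1 measured 4.05, 3.14, 10.4 and 9.27 CPM at 12AM and 56.2, 70.2, 92.0 and 85.4 CPM at 12PM (-3.50, SE 0.57). The ad-lib minus TAN difference was -0.30 (SE 0.36) for Cry1 and -0.39 (SE 0.74) for Nr1d1, both smaller than their SE. Of the core clock list 3 genes were called higher and 1 lower in TAN, and of the output list 6 were called higher. Wee1 (0.97 in ad-lib, 1.57 in TAN), Nampt (0.67 and 1.61), Usp2 (1.64 and 2.27), Hlf (0.45 and 1.74), Per2 (2.11 and 2.42), Nfil3 and Tspan4 passed in TAN but not in ad-lib, and no clock gene passed the test of the difference.

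**Figure D5:**
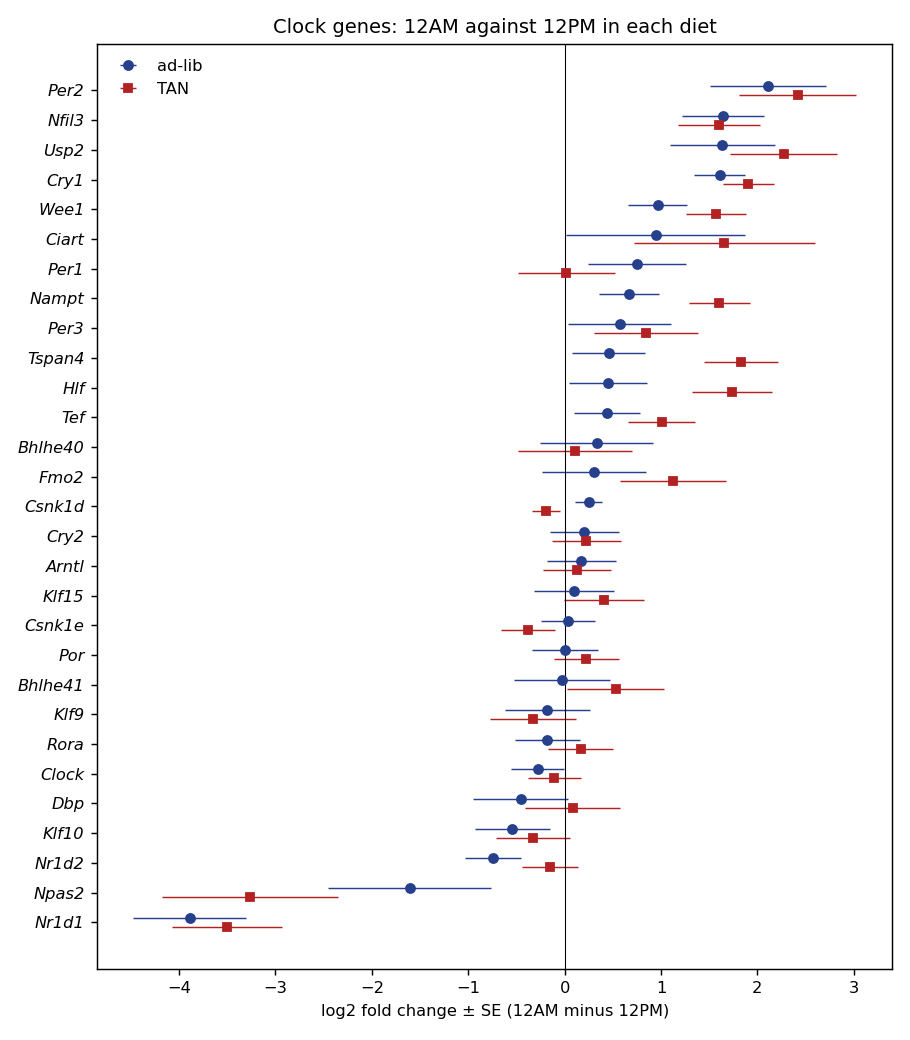
Log2 fold change of 12AM minus 12PM with SE for core clock and output genes in ad-lib (blue circles) and TAN (red squares). Nr1d1 was lowest in both diets (-3.89 and -3.50), and Cry1 was at 1.61 and 1.91.

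The gene whose change differed was F730311O21Rik, a long non-coding RNA of chromosome 1 with low counts. In ad-lib it was at 0.781, 1.35, 1.44 and 1.41 CPM at 12AM and 0.216, 0, 0.396 and 0.815 CPM at 12PM, while in TAN it was at 0 in all 4 night libraries and at 1.89, 1.17, 2.44 and 0.551 CPM by day. The adjusted p of the difference was 0.00477 (edgeR), and it was not called in a fit of the 16 libraries of both diets, with the replicate block or with the lymphocyte covariate. None of the lipogenic genes passed that test either, though levels could lie far apart. Acly had 3094, 2376, 1596 and 3432 CPM in TAN at 12PM and 1577, 2703, 3013 and 4489 CPM at 12AM, above every ad-lib library of either time (log2 fold change 0.17 in TAN against 1.32 in ad-lib). Fkbp5 (1.35) and Tsc22d3 (2.06) passed in TAN, where ad-lib gave 1.23 and 0.85.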

How the data were processed

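Diet and time came from the sample labels. The authors extracted total RNA and deposited raw counts per gene, without normalization, for 54532 genes with GRCm38 coordinates. They also deposited FPKM averaged per group, used here only to check the hours. The submitters' processing notes name TopHat, DESeq2, limma and edgeR. The counting tool and strand setting are not given in the sources used here.

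Counts were tested with edgeR 4.0.16 in R 4.3.3 (filterByExpr with a minimum count of 10, TMM scaling, robust quasi-likelihood fit) on all 48 libraries in 12 groups of diet and time, which share an estimate of the spread. Genes were called at a Benjamini-Hochberg adjusted p under 0.05 over all tested genes. The contrast was 12AM minus 12PM in ad-lib, with TAN and the difference between diets from the same fit. SE values are the log2 fold change over the root of the F statistic. Of symbols listed for several gene IDs, the one with the most counts was used. Marker sums were compared by exact permutation tests. The fit was tested on simulated data. Alternatives were DESeq2 1.42.0, limma voom (limma 3.58.1), RLE factors, other filters and sample sets, covariates, the replicate block and leaving out libraries. The replicate block was fitted to the 8 libraries only, or to the 16 of both diets for the diet difference.

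The main fit was not paired, and replicate numbers were used as a block only in alternative fits. Over 5000 genes, the residuals of the 4 same-numbered pairs correlated at 0.120 to 0.296. The 12 other pairs ran from -0.598 to 0.586, and the labels name no shared mouse or litter. These values do not establish that the numbers pair the libraries. Genes named were the core clock and output genes, the 4 lowest p of each other list, the called genes, the lowest p of the diet difference and tissue markers. Thrsp, Acss2, Slc25a1, Eno1, Thra and other list genes were named after their values were seen. Members and lists were chosen with earlier results of these data known. Some genes of the lists are counted but not reported here by name.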

Additional observations from a re-analysis of the deposited data

Results flagged for a closer look

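Within groups of 4 libraries, 13 of 162 groups held a library whose gap to the next exceeded Dixon's critical share of the range, where chance gives about 1 in 20. Skeletal muscle markers summed to 765 CPM in the highest 12AM library and 3261 CPM in the highest 12PM library, both replicate 3. The stroma markers were lowest at 1206 CPM in 12AM replicate 3, and the mitochondrial share was lowest at 3.57% in 12PM replicate 2. Among clock genes at 12PM, Hlf was highest at 45.1 CPM and Bhlhe40 at 196 CPM, and at 12AM Wee1 was highest at 21.7 CPM. Among metabolic genes at 12PM, Acly was highest at 666 CPM and Ppp1r3b at 151 CPM, both in replicate 3. Ccl19 was highest at 17.9 CPM in 12AM replicate 1. Of genes with few counts, F730311O21Rik was lowest at 0.781 CPM at 12AM, and Car12 and Gm14453 were highest at 0.0815 and 0.204 CPM at 12PM. The change of F730311O21Rik differed between the diets, with an adjusted p of 0.00477 for the difference (edgeR). No cause was tested for any of these.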

How the results depend on the processing

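Nr1d1 was called in 21 of 23 alternatives and Cry1 in 18, and the direction of every named gene with an unadjusted p under 0.05 held in all that could be fitted. Nr1d1 was not called with limma voom (adjusted p = 0.128) or in the fit of the 24 ad-lib libraries (0.0603). The counts of genes higher and lower at 12AM, 1 and 1 as reported, were 7 and 6 with DESeq2 and 11 and 5 with DESeq2 on the 8 libraries (added after seeing the data). They were 1 and 0 with limma voom, 0 and 1 in the fit of the 8 libraries, 0 and 0 in that of the 24 (where 790 genes had an unadjusted p under 0.05), and 0 and 1 with the replicate block. The lymphocyte covariate gave 7 and 2, and with the muscle covariate added after seeing the data 8 and 2. Leaving out 12PM replicates 1 and 3 together, also added after seeing the data, gave 0 and 1. Without single libraries they ranged from 1 to 3 and from 1 to 1, the 3 being without 12AM replicate 2, where Fkbp5 and Acacb joined. At an unadjusted p they were 504 and 429, and among fits without a single library their sum ran from 681 (12PM replicate 1) to 2022 (12PM replicate 4). Over the other alternatives it ran from 540 in the fit of the 8 libraries to 2065 with no filter. Genes whose change differed between diets, 1 as reported, were 93 with DESeq2, 0 in the 16-library fit, 0 with its replicate block and, with the lymphocyte covariate, 2 (9330188P03Rik and Adamts16, not F730311O21Rik), and 1 to 1 without single libraries. The replicate block was added to the fit of the 8 libraries, and to the 16-library fit for the diet difference. It changed no call of those fits, and Cry1 was not called in the 8-library fit without it either. RLE factors, other filters, mitochondrial genes left out, the muscle covariate and a 2-fold minimum left the counts at 1 and 1.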
